A study of Mus musculus with 12 samples.

Results

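The depot difference in the GFP contrast asks whether Zfp423-GFP marks the same expression pattern in fibroblasts of inguinal (subcutaneous) and epididymal (visceral) mouse fat. It was measured on all 12 arrays of the series, in 4 groups of 3 arrays. Stromal vascular cells of inguinal or epididymal fat were cultured and their fibroblasts sorted by GFP, which gave a GFP+ and a GFP- group for each depot. Every group came from male mice of 6 to 8 weeks that carried the Zfp423-GFP transgene on an FVB and C57BL/6 genetic background, so the GFP- groups carried it too and no group was free of it. The sorted cells were returned to culture in DMEM/F12 medium with fetal bovine serum and harvested while still proliferating. The reporter's construct and the number of mice behind each array are not given in the sources used here. Whether the 3 arrays of a group stand for separate mice or dishes is not stated either, and the p-values then measure only the spread between these arrays, which may be technical.

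Zfp423 is a zinc finger factor of preadipocytes, the fibroblast-like cells of fat that become adipocytes. It acts upstream of Pparg, the master regulator of fat cell differentiation, and binds members of the EBF family, which also drive that program. Subcutaneous and visceral fat differ in embryonic position, in their Hox genes and in their covering: the epididymal depot lies under a mesothelium, a keratin-positive sheet of cells that lines body cavities, which inguinal fat lacks.

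For each gene the GFP contrast was the log2 signal of GFP+ minus that of GFP- cells, and the depot difference was the inguinal contrast minus the epididymal one. A positive depot difference means that GFP+ stood higher against GFP- in inguinal than in epididymal cells. Genes were called with limma at a Benjamini-Hochberg adjusted p of at most 0.05 over 12393 genes, and all log2 values are of signal + 16, which understates changes of dim genes. A depot difference is given ± its standard error. Signal is the authors' linear probe set intensity, and one gene's signal is not set against another's. Array medians lay between 347.3 and 371.2, and arrays of a group correlated at 0.9929 to 0.9946 across genes. Probe sets of olfactory receptors, genes of the nose, had median signals of 19.4 to 22.3 by group. Fibroblast markers were bright on every array: Col1a1 ranged from 21907 to 25259.6, Col3a1 from 34365 to 38433 and Pdgfra from 4219 to 8086. They were not all even over the groups. Dcn read 3562 to 6781 in inguinal GFP+, 2284 to 3236 in inguinal GFP- and 15270 to 18059 in epididymal cells. In bulk RNA, fewer cells of a type and less RNA per cell cannot be told apart.

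Zfp423 itself was higher in GFP+ than in GFP- cells of both depots, and more so in epididymal cells. Its signals were 151, 112 and 110.0 in inguinal GFP+, 47.4, 73.2 and 51.7 in inguinal GFP-, 239, 278 and 208 in epididymal GFP+ and 29.1, 25.8 and 33.4 in epididymal GFP- cells. No GFP+ array overlapped a GFP- array of its depot. The lowest values were those of epididymal GFP- cells, near the olfactory receptor level, which limits the size of the epididymal contrast. The contrast was 0.94 (adjusted p = 0.00198) in inguinal and 2.50 (adjusted p = 8.53e-09) in epididymal cells, a depot difference of -1.56 ± 0.25 (adjusted p = 0.000138). Over the alternative settings that difference ran from -1.88 to -1.07.

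The GFP contrast differed between the depots in 4313 of 12393 genes (34.8% called), against 5177 genes at an unadjusted p under 0.05. Of the called genes, 2000 (16.1% of all genes) had a positive and 2313 (18.7%) a negative depot difference, so 46.4% were positive. Centring every array on its median turned this split to 2704 positive and 1772 negative genes, 60.4% positive. At least 2-fold differences numbered 425 positive and 561 negative, and at least 4-fold differences 113 and 177. The contrast itself was called in 1556 genes (12.6%) in inguinal cells, split into 5.26% up and 7.29% down in GFP+ cells. In epididymal cells it was called in 5187 (41.9%), split into 21.5% up and 20.3% down, and its SD over all genes was 0.61 on the log2 scale against 0.32 in inguinal cells.

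Most depot differences were changes seen in epididymal cells. Of the 4313 genes, 2937 (68.1%) were called in the epididymal contrast alone and 266 (6.17%) in the inguinal contrast alone. Another 307 moved the same way in both depots with the larger change in epididymal cells, and 44 with the larger change in inguinal cells. In 255 neither single contrast was called. The remaining 504 genes (11.7% of the called genes) changed in opposite directions in the 2 depots and are described next. Across all genes the 2 contrasts, which share no array, correlated at r = 0.08; genes are not independent replicates.

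**Figure D1:**
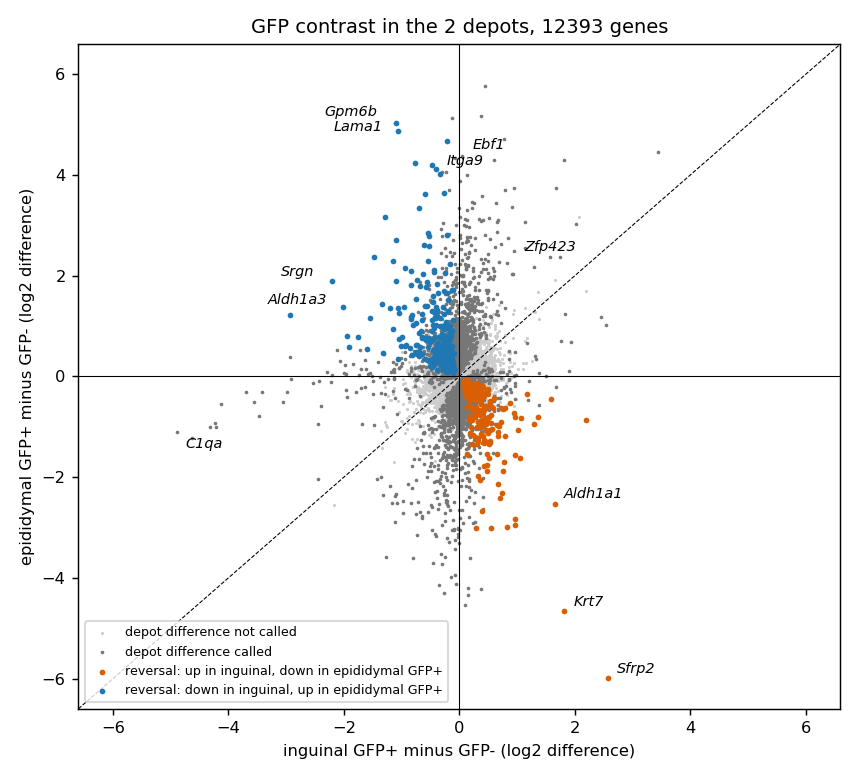
Log2 difference of GFP+ minus GFP- cells in inguinal (horizontal axis) and epididymal fat (vertical axis) for 12393 genes, 1 point each; the dashed diagonal marks equal contrasts. The cloud is taller than it is wide (SD 0.61 against 0.32), and the coloured points in the upper left and lower right are the 504 sign reversals.

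A gene was a sign reversal when the depot difference and both single contrasts were called and the single contrasts had opposite signs. Unlike a difference in size, such a reversal does not depend on whether values are compared on a linear or a log scale. Of the 12393 genes, 504 (4.07%) met this rule. GFP+ cells were higher in inguinal and lower in epididymal fat for 206 (1.66%), and the other way round for 298 (2.4%). Which direction held more genes depended on the scaling: median centring gave 371 and 205. In 491 of the 504 the GFP+ and GFP- arrays did not overlap in either depot. This is largely built into the rule, which was applied to the same arrays, and is no separate support. Of all genes 1054 (8.5%) were opposite without overlap, those 491 among them. Most reversals were small on one side: the median of the smaller of the 2 changes was 0.29 and 0.27 on the log2 scale in the 2 directions. Both changes were at least 1.5-fold in 82 genes and at least 2-fold in 20. Of the 1124 genes called in both depots 620 moved the same way and these 504 in opposite ways, which is 32.4% of the inguinal and 9.72% of the epididymal calls. Another probe set of the same gene was detected for 212 reversals and gave both signs alike in 187 (88.2%), of which 98 were reversals by themselves.

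The 2 leading reversals in each direction were Sfrp2 and Krt7, and Srgn and Slamf9. The 250 bases before their start sites are shown, from RefSeq with build GRCm38.p6, on the strand of the gene and 5′ to 3′, because they lead the reversals. Capitals mark E-boxes (CANNTG, found on both strands since the motif is its own reverse complement), the site of basic helix-loop-helix factors. The Sfrp2 stretch is chr3:83766071-83766320 on the plus strand, Krt7 chr15:101412153-101412402 on the plus strand, Srgn chr10:62527446-62527695 on the minus strand and Slamf9 chr1:172475110-172475359 on the plus strand.
Sfrp2: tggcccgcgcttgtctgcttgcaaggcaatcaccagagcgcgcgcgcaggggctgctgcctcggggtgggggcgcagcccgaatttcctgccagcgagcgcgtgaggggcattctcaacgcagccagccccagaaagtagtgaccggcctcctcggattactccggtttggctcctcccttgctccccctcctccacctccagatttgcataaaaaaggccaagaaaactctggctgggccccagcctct
Krt7: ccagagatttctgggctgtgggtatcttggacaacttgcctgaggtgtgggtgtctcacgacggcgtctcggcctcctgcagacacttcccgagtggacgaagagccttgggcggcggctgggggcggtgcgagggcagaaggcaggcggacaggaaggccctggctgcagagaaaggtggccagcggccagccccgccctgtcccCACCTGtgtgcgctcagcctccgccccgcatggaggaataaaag
Srgn: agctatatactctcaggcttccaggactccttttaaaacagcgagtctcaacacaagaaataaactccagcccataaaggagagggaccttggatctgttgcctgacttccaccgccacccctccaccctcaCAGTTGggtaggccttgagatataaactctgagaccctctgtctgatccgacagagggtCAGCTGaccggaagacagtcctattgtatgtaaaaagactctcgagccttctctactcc
Slamf9: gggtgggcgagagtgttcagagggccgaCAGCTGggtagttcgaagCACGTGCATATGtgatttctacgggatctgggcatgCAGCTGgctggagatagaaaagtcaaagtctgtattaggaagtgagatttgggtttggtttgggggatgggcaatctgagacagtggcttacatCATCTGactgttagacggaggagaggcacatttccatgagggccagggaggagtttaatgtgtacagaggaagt
They held 0, 1, 2 and 5 E-boxes, and none held the EBF motif (TCCC, any 2 bases, GGGA), which is also its own reverse complement. An E-box stood in 66% and the EBF motif in 0.788% of all 27025 promoters that RefSeq's list gave. Among reversals with a promoter entry, an E-box stood in 62.6% of 174 genes that were up in inguinal and in 58.7% of 223 that were down, against 59.4% of the 9887 tested genes with an entry.

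Sfrp2, a secreted antagonist of Wnt ligands, had the largest depot difference of any gene whose highest group was detected. Its signals were 211, 90.8 and 349 in inguinal GFP+, 16.9, 22.2 and 17.6 in inguinal GFP-, 15.8, 47.1 and 37.7 in epididymal GFP+ and 2442, 3600.2 and 3135 in epididymal GFP- cells. Epididymal GFP- cells were far above the rest, inguinal GFP+ cells came next with a wide spread, and the other groups lay near the level of the olfactory receptor probe sets. The contrast was 2.57 (adjusted p = 5.71e-05) in inguinal and -6.00 (adjusted p = 3.68e-10) in epididymal cells, a depot difference of 8.57 ± 0.48 (adjusted p = 6.26e-10). Its size depended on the pseudocount: it was 6.65 with 64 and 9.85 with 1.

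Krt7, a keratin of simple epithelia and mesothelium, also peaked in epididymal GFP- cells. It read 593, 574 and 525 in inguinal GFP+, 144, 146 and 155 in inguinal GFP-, 52.9, 52.7 and 62.6 in epididymal GFP+ and 1534, 2169.9 and 1787 in epididymal GFP- cells. No 2 groups overlapped, with epididymal GFP- highest and epididymal GFP+ lowest. The contrast was 1.82 (adjusted p = 2.64e-08) in inguinal and -4.67 (adjusted p = 1.52e-14) in epididymal cells, a depot difference of 6.48 ± 0.16 (adjusted p = 5.29e-14). Bnc1, a zinc finger factor of mesothelium and keratinocytes, was near the olfactory receptor level in inguinal GFP- cells (18.1 to 32.2), at 51.7 to 79.9 in inguinal GFP+, at 1403 to 1546 in epididymal GFP+ and at 10195 to 10949 in epididymal GFP- cells. It rose by 0.95 and fell by 2.84 on the log2 scale. These genes belong to the mesothelial marker list, whose summed signal was 14640 to 15970 in inguinal GFP+, 6616 to 6944 in inguinal GFP-, 17450 to 18030 in epididymal GFP+ and 59750 to 61980 in epididymal GFP- arrays. Upk3b and Msln, which define mesothelium, were near the olfactory receptor level in both inguinal groups (4.72 to 17.7 and 31.6 to 55.6), and read 582 to 625 and 167 to 200.3 in epididymal GFP+ and 9045 to 9812 and 2252 to 2411 in epididymal GFP- cells. In inguinal cells most of the sum was Aldh1a2, described below. The part of mesothelial cells in the epididymal contrast was not tested.

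A further 4 genes rose in inguinal and fell in epididymal GFP+ cells with no overlap of arrays in either depot. Itgbl1, an integrin beta-like secreted protein, read 201 to 372 against 117 to 159 in inguinal and 31.3 to 60.4 against 125 to 193 in epididymal GFP+ and GFP- cells, a depot difference of 2.67 ± 0.33 (adjusted p = 8.2e-06). Arhgap18 had one of 2.07 ± 0.16 (adjusted p = 4.3e-08), and the sialyltransferase St3gal1 one of 2.51 ± 0.12 (adjusted p = 1.3e-10). Fam110c read 191 to 232 against 86 to 113 in inguinal and 1056 to 1249 against 7923 to 9934 in epididymal cells. In Fam110c both epididymal groups were above both inguinal ones. The inguinal contrasts of Itgbl1, Arhgap18 and Fam110c, and that of Bnc1, lost their calls with a minimum change of 1.5-fold.

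In the other direction Srgn, which encodes serglycin, a proteoglycan of secretory granules, gave almost a mirror image between depots. Its signals were 106, 94.5 and 78.2 in inguinal GFP+, 443, 554 and 465 in inguinal GFP-, 448, 567 and 552 in epididymal GFP+ and 119.8, 147 and 121 in epididymal GFP- cells. Inguinal GFP- and epididymal GFP+ cells formed the high pair, and their arrays overlapped each other. The low pair was inguinal GFP+ and epididymal GFP-, whose arrays did not overlap each other. The contrast was -2.21 (adjusted p = 1.58e-08) in inguinal and 1.89 (adjusted p = 6.62e-09) in epididymal cells, a depot difference of -4.10 ± 0.19 (adjusted p = 7e-11).

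Slamf9, a receptor of the SLAM family, had the same high pair. It read 231, 275 and 190.3 in inguinal GFP+, 663, 668 and 665 in inguinal GFP-, 799.8, 675 and 739.7 in epididymal GFP+ and 153, 140.0 and 104 in epididymal GFP- cells. The contrast was -1.47 (adjusted p = 1.28e-06) in inguinal and 2.36 (adjusted p = 3.98e-10) in epididymal cells, a depot difference of -3.83 ± 0.19 (adjusted p = 1.59e-10). The summed signal of macrophage and leukocyte markers was 21640 to 25640 in inguinal GFP- and 6868 to 7565 in inguinal GFP+ arrays. In epididymal arrays it was 5028 to 5636 in GFP+ and 5813 to 6402 in GFP-. The part of such cells in the Srgn and Slamf9 contrasts was not tested. Col15a1, a basement membrane-zone collagen, read 798, 666 and 864 in inguinal GFP+, 1909.8, 1850.1 and 1969 in inguinal GFP-, 999.8, 1084 and 1025 in epididymal GFP+ and 93, 115 and 99.1 in epididymal GFP- cells. Every group was separate: inguinal GFP- was highest and epididymal GFP- lowest. Its depot difference was -4.45 ± 0.13 (adjusted p = 2.26e-13).

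Pcolce2, an enhancer of procollagen processing, read 139.6, 176 and 127 in inguinal GFP+, 695, 694 and 549 in inguinal GFP-, 2333, 2262 and 2294 in epididymal GFP+ and 925, 811 and 879 in epididymal GFP- cells. Inguinal GFP+ was lowest and epididymal GFP+ highest, and the depot difference was -3.40 ± 0.15 (adjusted p = 3.61e-11). Smoc1, a secreted calcium-binding matricellular protein, read 515 to 693 in inguinal GFP+ against 1529 to 1816 in GFP- cells and 1241 to 1391 against 558 to 596 in epididymal cells, a depot difference of -2.71 ± 0.14 (adjusted p = 1.99e-10). Limch1, an activator of non-muscle myosin, had one of -2.56 ± 0.24 (adjusted p = 3.75e-07). The inguinal contrast of Limch1 lost its call with a minimum change of 1.5-fold (adjusted p = 0.121). Dmd, the gene of dystrophin, rested partly on 1 array: inguinal GFP+ read 1045, 1187 and 329 against 1907, 1677 and 2209.9 in GFP- cells. Its depot difference was -2.79 ± 0.45 (adjusted p = 0.000132), and its inguinal contrast lost its call without the variance trend (adjusted p = 0.0746). Both single contrasts of Dmd lost their calls with a minimum change of 1.5-fold.

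**Figure D2:**
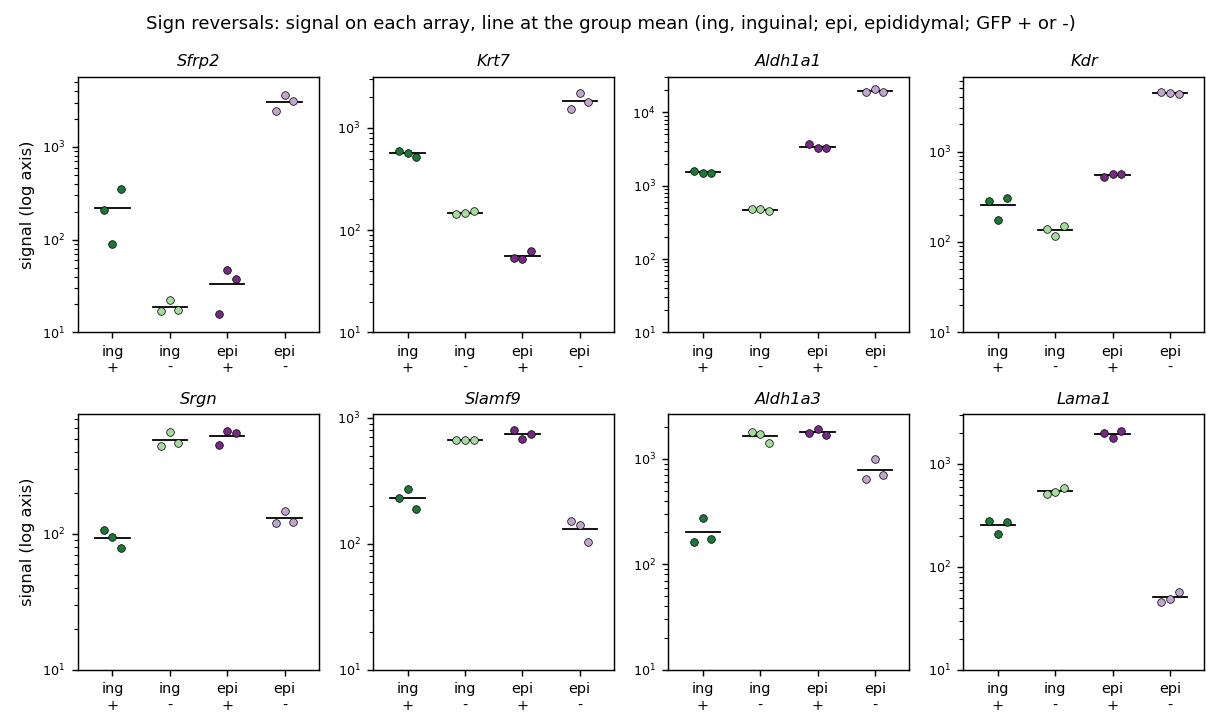
Signal on each array (log axis) for 8 sign reversals in the 4 groups, with a line at each group mean (n = 3). In the upper row inguinal GFP+ is above GFP- and epididymal GFP+ below GFP-; in the lower row the order is turned in both depots, and Srgn runs from 78.2 to 106 and 119.8 to 147 in its low groups to 443 to 554 and 448 to 567 in its high groups.

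In 196 of the 504 reversals (38.9%) the depots changed places as well: the inguinal minus epididymal difference was called in both GFP+ and GFP- cells, with opposite signs. These were 68 of the 206 genes that were up in inguinal GFP+ cells and 128 of the 298 that were down. Sfrp2, Krt7, Srgn, Slamf9, Col15a1 and Aldh1a3 were among them. In 63 and 36 reversals of the 2 directions the epididymal cells were higher in both fractions, as for Aldh1a1, and in 21 and 50 the inguinal cells were, as for Fbxo32. This count was added after the data were seen, as was the naming of Fbxo32, a muscle-type ubiquitin ligase subunit that read 886 to 1156 and 2059 to 2131 in inguinal GFP+ and GFP- cells and 337 to 418 and 137 to 158 in epididymal cells.

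The 3 retinaldehyde dehydrogenases, which make retinoic acid from retinaldehyde, were all reversals but not in the same direction. Aldh1a1 read 1591, 1471 and 1495 in inguinal GFP+, 488, 475 and 452 in inguinal GFP-, 3651, 3315 and 3232 in epididymal GFP+ and 19097, 20832 and 19095 in epididymal GFP- cells. The groups were fully separate, and both epididymal groups were above both inguinal ones. Its contrast was 1.66 (adjusted p = 7.79e-12) in inguinal and -2.53 (adjusted p = 1.33e-15) in epididymal cells, a depot difference of 4.18 ± 0.07 (adjusted p = 9.97e-16).

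Aldh1a2, the main enzyme of retinoic acid synthesis in the embryo and a mesothelial marker, read 13104, 11839 and 13523 in inguinal GFP+, 4227, 4399.7 and 4176 in inguinal GFP-, 7357, 7555 and 7484 in epididymal GFP+ and 10394, 10380.2 and 9819.7 in epididymal GFP- cells. Inguinal GFP+ was highest and inguinal GFP- lowest. Its depot difference was 2.03 ± 0.06 (adjusted p = 2.28e-13), most of it on the inguinal side (1.58 against -0.45). Aldh1a3 had the opposite sign: it read 161, 276 and 172 in inguinal GFP+, 1777, 1712 and 1399 in inguinal GFP-, 1769.7, 1934 and 1693 in epididymal GFP+ and 645, 993 and 696 in epididymal GFP- cells. Inguinal GFP+ was lowest, epididymal GFP- intermediate, and the other groups overlapped at the top. The depot difference was -4.16 ± 0.24 (adjusted p = 1.1e-09), and 2 other probe sets gave -3.43 and -5.08.

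Among the other retinoid genes, Rarb, a retinoic acid receptor that is itself induced by retinoic acid, read 487, 506 and 408 in inguinal GFP+, 407, 399.8 and 390.3 in inguinal GFP-, 927, 1011 and 977 in epididymal GFP+ and 62.8, 79 and 78.9 in epididymal GFP- cells, a depot difference of -3.25 ± 0.14 (adjusted p = 3.61e-11). Cyp26a1, the retinoic acid hydroxylase, was at or near the olfactory receptor level in inguinal cells (21.1 to 45.7) and read 74.2 to 107 in epididymal GFP+ and 567 to 599 in epididymal GFP- cells. Of 21 measured retinoid genes, 4 were called positive, 7 negative and 10 not called (52.4% called against 34.8% of all genes, dim ones included). The median depot difference was -0.17 against -0.02 over all genes.

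Each called gene was then asked whether 1 group stood apart, that is, was called at least 2-fold above or below each of the other 3 groups with a gap wider than the range of those 3. This held for 599 of the 4313 genes (13.9%), and in 486 of them (81.1%) the group was epididymal GFP-. It was high in 243 genes (1.96% of all genes) and low in 243 (1.96%). Epididymal GFP+ cells were high in 33 (0.266%) and low in 16 (0.129%), inguinal GFP- high in 41 (0.331%) and low in 4 (0.0323%), and inguinal GFP+ high in 5 (0.0403%) and low in 14 (0.113%). Without inguinal GFP+ replicate 2 the inguinal GFP- low class held 9 genes. By the group mean farthest from the other 3, epididymal GFP- took 59.6% of called genes against 41.6% of all genes. Inguinal GFP+ took 8.35% against 18.9%, inguinal GFP- 5.7% against 13.3% and epididymal GFP+ 26.3% against 26.1%.

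**Figure D3:**
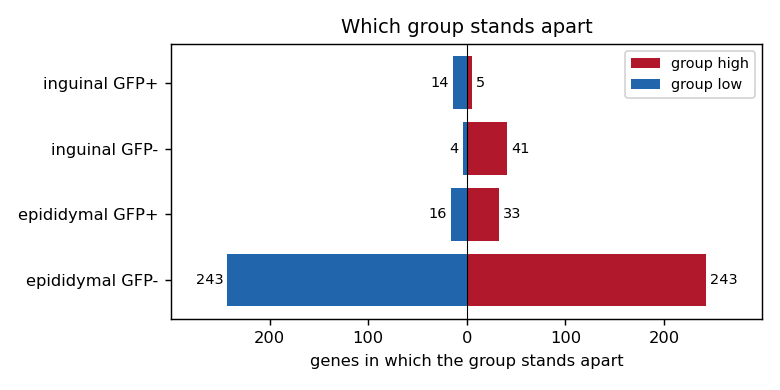
Number of genes with a called depot difference in which 1 group stood at least 2-fold above (right) or below (left) each of the other 3. Epididymal GFP- cells account for 486 of the 599 genes.

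Ebf1 and Ebf2 were far lower in epididymal GFP- cells than in the other 3 groups. Ebf1, an early B cell factor that promotes adipogenesis, read 3518, 3578 and 3637 in inguinal GFP+, 3544, 3374 and 3513 in inguinal GFP-, 2762, 3099 and 2895 in epididymal GFP+ and 119, 130.2 and 126 in epididymal GFP- cells. The 2 inguinal groups overlapped, epididymal GFP+ lay a little under them, and epididymal GFP- was far below. Means were 3577 ± 59.9, 3477 ± 90.3, 2919 ± 169 and 125 ± 5.75 (SD, n = 3). The contrast was 0.04 (adjusted p = 0.686) in inguinal and 4.38 (adjusted p = 3.64e-18) in epididymal cells, a depot difference of -4.34 ± 0.07 (adjusted p = 5.22e-16), and 2 other probe sets gave -4.42 and -4.35.

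The 250 bases before the Ebf1 start, chr11:44617850-44618099 on the plus strand of GRCm38.p6 from RefSeq, held neither an E-box nor the EBF motif and are shown because Ebf1, with Ebf2, was low in epididymal GFP- cells alone.
Ebf1: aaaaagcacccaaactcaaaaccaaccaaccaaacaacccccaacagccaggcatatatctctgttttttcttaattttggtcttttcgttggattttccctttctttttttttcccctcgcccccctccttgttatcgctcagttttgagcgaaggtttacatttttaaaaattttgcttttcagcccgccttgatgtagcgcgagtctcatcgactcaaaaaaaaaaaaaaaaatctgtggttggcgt
Of 190 genes of the epididymal GFP- low class with a promoter entry 0 held the EBF motif, against 6 of 188 (3.19%) in the high class and 0.86% of all tested genes with an entry; E-boxes stood in 59.5% and 59%. Among reversals the EBF motif stood in 1 of 174 genes up in inguinal (0.575%) and 3 of 223 that were down (1.35%). All these EBF counts rest on few genes, and no conclusion was drawn from them.

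Ebf2, which marks beige and brown preadipocytes, read 750.0, 719 and 775 in inguinal GFP+, 835, 808 and 812 in inguinal GFP-, 1151, 1203 and 1168 in epididymal GFP+ and 15.2, 15.1 and 25.1 in epididymal GFP- cells. It too was low in epididymal GFP- cells alone, and there it was at the olfactory receptor level. Its depot difference was -5.25 ± 0.14 (adjusted p = 1.07e-13). Pla1a, a phosphatidylserine phospholipase, read 121 to 173 in that group and 6240.5 to 9196 in the other 3, a depot difference of -5.33 ± 0.11 (adjusted p = 7.68e-15). Ms4a4d, a membrane-spanning 4-domain protein, was at 53.6 to 101 there and at 1646 to 3785 elsewhere.

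Itga9, an integrin subunit that binds tenascin and osteopontin, was lowest in epididymal GFP- cells but also highest in epididymal GFP+ cells. Its signals were 1101, 1032 and 1124 in inguinal GFP+, 1427, 1456 and 1453 in inguinal GFP-, 3489, 3452 and 3441 in epididymal GFP+ and 181, 175 and 198 in epididymal GFP- cells. The 4 groups did not overlap. The contrast was -0.41 (adjusted p = 5.38e-05) in inguinal and 4.12 (adjusted p = 1.27e-17) in epididymal cells, a depot difference of -4.53 ± 0.07 (adjusted p = 7.59e-16). Of 2 other probe sets, both negative (-3.00 and -1.96), one had the inguinal sign turned (0.12).

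Of the 6 leading negative differences 4 had that shape. Gpm6b, a neuronal-type membrane proteolipid, read 315, 198 and 403 in inguinal GFP+, 591, 655 and 693 in inguinal GFP-, 3200.4, 3422 and 3001 in epididymal GFP+ and 74.1, 95.4 and 78.3 in epididymal GFP- cells, with a depot difference of -6.13 ± 0.24 (adjusted p = 1.17e-11). Lama1, the laminin alpha chain of embryonic basement membranes, read 277, 211 and 274 in inguinal GFP+, 513, 535 and 581 in inguinal GFP-, 1982, 1773 and 2085 in epididymal GFP+ and 45.7, 49.1 and 57.2 in epididymal GFP- cells, with -5.94 ± 0.16 (adjusted p = 9.01e-14). Nr2f1 (COUP-TFI), an orphan nuclear receptor, read 1067, 925 and 1007 in inguinal GFP+, 1184, 1186 and 1128 in inguinal GFP-, 4221, 4001 and 4087 in epididymal GFP+ and 142, 139 and 157 in epididymal GFP- cells, with -4.89 ± 0.09 (adjusted p = 1.2e-15). Pilra, an inhibitory immunoglobulin-like receptor, had a depot difference of -5.00 ± 0.17 (adjusted p = 1.72e-12). In all 4, epididymal GFP+ was highest, epididymal GFP- lowest and inguinal GFP- above inguinal GFP+, so all were reversals, though the inguinal call of Nr2f1 was lost with median centring (-0.18, adjusted p = 0.0529).

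On the high side of epididymal GFP- cells, several genes were near the olfactory receptor level in inguinal cells. Lratd1 read 2.13 to 8.9 in inguinal, 12.4 to 30.7 in epididymal GFP+ and 712, 959.8 and 739 in epididymal GFP- cells, a depot difference of 4.64 ± 0.31 (adjusted p = 6.35e-09). Pdlim3, a muscle LIM protein, read 18.7 to 29.8, 78.3 to 105 and 1629.8 to 2939 in the same order, Prr15 15.1 to 29.2, 96.5 to 122 and 1942 to 2704, and Gpm6a, a membrane glycoprotein of neurons and mesothelium, 22.3 to 57, 113 to 145 and 2403 to 3055. In Pdlim3, Prr15 and Gpm6a epididymal GFP+ cells lay above the olfactory receptor level too, though far below epididymal GFP- cells. Lratd1 was at or near that level in all groups but epididymal GFP-. Etl4 stood at 1094 to 1564 against 48.6 to 101 in the other 3 groups. Of the 243 genes that were high in epididymal GFP-, 5 belonged to the mesothelial list, whose sums are given above; 238 remained without that list and the macrophage list.

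**Figure D4:**
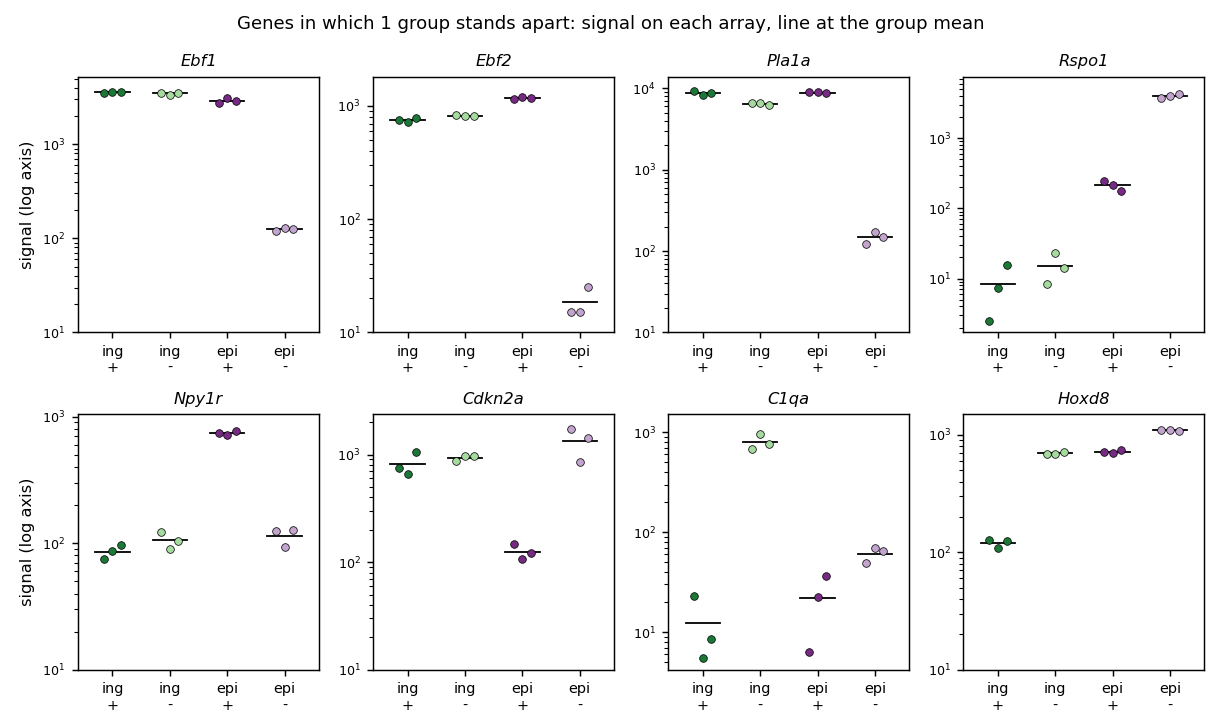
Signal on each array (log axis) for 8 genes in which 1 group stood apart, with a line at each group mean (n = 3). Ebf1, Ebf2 and Pla1a are low and Rspo1 is high in epididymal GFP- cells, Npy1r is high and Cdkn2a low in epididymal GFP+, C1qa is high in inguinal GFP- and Hoxd8 low in inguinal GFP+ cells.

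In epididymal GFP+ cells, Npy1r, a neuropeptide Y receptor, read 745, 716 and 769.6 against 74.6 to 126 in the other 3 groups, a depot difference of -2.81 ± 0.20 (adjusted p = 1.49e-08). Eya2, a transcriptional coactivator and phosphatase, read 361 to 377 against 31.5 to 56.9, Qpct, a glutaminyl cyclase, 918 to 1119 against 99.7 to 197, and Mfap4, a microfibril protein, 1552 to 1878 against 111 to 432. The 3 arrays of the group were tight and clear of all others. Cdkn2a, the locus of the cell cycle inhibitors p16 and p19, was low: it read 756, 665 and 1054 in inguinal GFP+, 876, 971 and 968 in inguinal GFP-, 148, 106 and 120.5 in epididymal GFP+ and 1710.4, 859 and 1434 in epididymal GFP- cells, a depot difference of 3.01 ± 0.28 (adjusted p = 3.75e-07). Also low there were Cd24a, a surface protein of preadipocytes, at 191 to 249 against 899.9 to 1565, the muscle factor Mef2c at 78.1 to 82.4 against 245 to 622, and the prostaglandin transporter Slco2a1, of whose other probe sets one gave -0.15 (adjusted p = 0.651).

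Of the 41 genes that were high in inguinal GFP- cells, 11 were on the list of macrophage and leukocyte markers. C1qa, a complement chain made by macrophages, read 23.1, 5.45 and 8.52 in inguinal GFP+, 681, 970.3 and 773 in inguinal GFP-, 6.35, 22.6 and 36.8 in epididymal GFP+ and 49, 70.2 and 64.4 in epididymal GFP- cells. C1qb read 444 to 599 and C1qc 473 to 568 in inguinal GFP- cells against 10.8 to 58.5 and 8.33 to 36.7 elsewhere. The depot difference of C1qa was -3.79 ± 0.40 (adjusted p = 1.54e-06), but its sign of change was the same in both depots (-4.90 and -1.10). Of the 23 markers of that list 19 were called negative, 0 positive and 4 not called, with a median of -1.81; without epididymal GFP+ replicate 3, 1 was positive. Their summed signal was 21640 to 25640 in inguinal GFP- arrays, 6868 to 7565 in inguinal GFP+, 5028 to 5636 in epididymal GFP+ and 5813 to 6402 in epididymal GFP-. Not every leukocyte gene peaked in inguinal GFP- cells. Cd53 read 3897 to 4288.5 in inguinal GFP+ against 2031.5 to 2226 in inguinal GFP- cells. Adgre1 read 457 to 670 in epididymal GFP+ against 321 to 375 in inguinal GFP- cells. Cd14 read 667 to 854 in epididymal GFP- and 657 to 713 in inguinal GFP- cells. Ptprc, the leukocyte surface phosphatase CD45, read 239 to 258 in inguinal GFP- cells and 4.88 to 48.7 elsewhere. Lyz2 and Lyz1, lysozymes whose near-identical sequences may share probes, read 3561 to 4327 and 6889.9 to 8489 in that group. The part of such cells in the 41 genes was not tested; 30 remained without the list. Csf1r, the receptor of the macrophage growth factor, was the 1 reversal of the list (-0.76 and 1.05). Outside the list, Meox2, a homeobox factor of mesoderm, read 473, 495 and 557 in inguinal GFP- cells against 3.38 to 78.2 elsewhere, a depot difference of -3.31 ± 0.34 (adjusted p = 9.95e-07).

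Few genes set inguinal GFP+ cells apart. The homeobox gene Hoxd8 read 126, 109 and 124 in inguinal GFP+, 690.1, 683 and 709 in inguinal GFP-, 707, 706 and 749.6 in epididymal GFP+ and 1094, 1106 and 1085 in epididymal GFP- cells. It was low in that group alone, and the depot difference was -1.80 ± 0.10 (adjusted p = 4.67e-10). Ptger2, a prostaglandin E receptor, read 13.3 to 23.7 there and 81.6 to 307 elsewhere; Pcolce2 and Aldh1a3 were low there too. On the high side, Dpt, a dermal matrix protein found in fibroblasts, read 544 to 1067 against 24.1 to 173, with a depot difference of 1.27 ± 0.34 (adjusted p = 0.00835). Sprr1a and Lce1h, cornified envelope proteins of skin, read 675 to 954 and 307 to 378 against 176 to 335 and 92.5 to 194 elsewhere. Ptpn5, a tyrosine phosphatase, lost its call when a gene's probe sets were averaged (0.56, adjusted p = 0.0834). In the opposite class, the calcium channel gene Trpc6 read 48.2 to 79.5 in inguinal GFP- cells and 152 to 375 elsewhere, and lipoprotein lipase, Lpl, 3916 to 4554 and 8464 to 13954. Atp9a and Clec3b completed that class. With a minimum change of 1.5-fold the depot differences of Dpt, Ptpn5 and Lpl lost their calls (adjusted p = 0.361, 0.176 and 0.388).

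Gene lists were counted against the background of 34.8% of genes called. That share includes genes whose highest group was weakly detected (signal under 77.7), which made up only 2.9% of the calls. Lists differ in such members (12 of 42 Wnt pathway and 2 of 21 retinoid genes), so a share above 34.8% was not read as enrichment. Over all genes 4.07% were reversals and 1.96% were low in epididymal GFP- cells alone, dim genes included. List counts of these were not read as enrichment either. Among 25 measured adipogenic regulators, 5 were called positive, 10 negative and 10 not called (60%), and 6 were reversals. Pparg was higher in GFP+ cells of both depots: it read 796, 912 and 805 in inguinal GFP+, 355, 343 and 305 in inguinal GFP-, 238, 222 and 183 in epididymal GFP+ and 29.7, 28.2 and 48.8 in epididymal GFP- cells. Its depot difference was -0.89 ± 0.21 (adjusted p = 0.00278), with epididymal GFP- cells near the olfactory receptor level. Egr2, an early growth response factor that promotes adipogenesis, was a reversal (-0.73 and 1.92). Of the 18 anti-adipogenic regulators 5 were positive and 7 negative (66.7%). Snai2, a repressor of epithelial genes, had -1.84 ± 0.07 (adjusted p = 9.49e-12), and Twist1, a mesenchymal factor, the reversal 1.11 ± 0.07 (adjusted p = 4.24e-09).

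Among 27 adipocyte lipid genes 8 were positive, 4 negative and 15 not called (44.4%). Fabp4, the fatty acid binding protein of adipocytes, read 5013, 5703 and 4022 in inguinal GFP+, 1399, 1417 and 1301 in inguinal GFP-, 6169, 6471 and 6031 in epididymal GFP+ and 295, 318 and 288 in epididymal GFP- cells. It was higher in GFP+ cells of both depots with no overlap, and the depot difference was -2.49 ± 0.12 (adjusted p = 1.94e-10). Its relative Fabp5 was a reversal (-0.39 and 1.19), and G0s2, an inhibitor of the lipase Pnpla2, was low in epididymal GFP- cells (45.5 to 57.8 against 312 to 553).

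Of 42 Wnt pathway genes 8 were positive, 7 negative and 27 not called (35.7%, near the background). Wnt5a, a ligand of the noncanonical pathway, was a reversal: it read 1279.9, 1414 and 1250.0 in inguinal GFP+, 1751, 1678 and 1817 in inguinal GFP-, 3153, 3273 and 3174 in epididymal GFP+ and 1207, 1369 and 1116 in epididymal GFP- cells, a depot difference of -1.78 ± 0.09 (adjusted p = 2.38e-10). Fzd7, a receptor, had -0.80 with the probe set used and -0.00 with the other (adjusted p = 0.997). In the BMP and TGF-beta list 10 of 48 were positive and 14 negative (50%). Inhbb, an activin subunit, read 5984, 5548 and 5953 in inguinal GFP+, 3597, 3839 and 3788 in inguinal GFP-, 3192, 3019.6 and 2923 in epididymal GFP+ and 282, 242 and 272 in epididymal GFP- cells, a depot difference of -2.81 ± 0.08 (adjusted p = 1.28e-13), though a dimmer probe set gave -0.39 (adjusted p = 0.0581). Eng, a TGF-beta coreceptor, was a reversal with -3.02 ± 0.09 (adjusted p = 5.73e-13) whose inguinal call was lost with quantile normalization (-0.18, adjusted p = 0.116) and median centring (-0.17, adjusted p = 0.107), and Tgfbr1, the type I receptor, one with -1.69 whose dimmer probe set gave -0.32 (adjusted p = 0.545).

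Integrins and basement membrane genes split evenly, with 9 of 33 positive, 10 negative and 7 reversals (57.6% called). Itga7, a laminin receptor of muscle, ran against Itga9: it read 553, 506 and 507 in inguinal GFP+, 325, 323 and 298 in inguinal GFP-, 205, 223 and 208 in epididymal GFP+ and 1170.0, 1292 and 1156 in epididymal GFP- cells, a depot difference of 3.12 ± 0.11 (adjusted p = 2.01e-12). Epididymal GFP- cells were highest for Itga7 and lowest for Itga9 and Lama1. Among 45 matrix genes 11 were positive and 23 negative (75.6%), and 10 of the 45 were low in epididymal GFP- cells alone (against 1.96% of all genes). Postn (periostin) read 29195 to 36416 in the other groups and 5468 to 6134 in epididymal GFP- cells, and Mfap5, a microfibril protein, 21574 to 24288 and 5245 to 5554.

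Growth factor genes were called in 64.5% (8 of 31 positive, 12 negative). Fgf7, a growth factor for epithelial cells, read 1569.6 to 4320.0 against 85.6 to 98.5 in epididymal GFP- cells, with -3.88 ± 0.08 (adjusted p = 1.11e-14). Vegfa, which acts on endothelium, was a reversal of -1.71 ± 0.06 (adjusted p = 1.53e-12), and its receptor Kdr one in the other direction with 3.81 ± 0.20 (adjusted p = 4.45e-10): Kdr read 285, 177 and 309 in inguinal GFP+, 139, 115 and 151 in inguinal GFP-, 525, 560.1 and 571 in epididymal GFP+ and 4615, 4489.6 and 4303 in epididymal GFP- cells. Among 37 chemokine, cytokine and acute phase genes 8 were positive and 11 negative (51.4%). Cxcl14 read 7401 to 9336 against 302 to 407, Ccl9 1096 to 3867 against 78.3 to 96.1, and Ccl2, the monocyte attractant, was a reversal of 2.20 ± 0.10 (adjusted p = 4.94e-11). Of 25 interferon and antigen presentation genes 4 were positive and 7 negative (44%); Psmb8, an immunoproteasome subunit, had -1.65 ± 0.14 (adjusted p = 1.14e-07) and Irf1, an interferon-response factor, was a reversal (-0.75) whose inguinal call was lost with median centring (-0.13, adjusted p = 0.1) and whose depot difference was lost with a minimum change of 1.5-fold (adjusted p = 0.203). H2-D1, a class I molecule, lost its call when probe sets were averaged (-0.30, adjusted p = 0.0809).

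Position genes, which record where along the body a cell arose, were called in 58% (8 of 50 positive, 21 negative, 2 reversals), with a median of -0.40. The 8 positive members fell to 5 without inguinal GFP+ replicate 1, inguinal GFP- replicate 3 or epididymal GFP- replicate 1, each left out alone, and to 4 at an adjusted p of 0.01. Hoxb2 read 1911, 1945 and 2054 in inguinal GFP+, 2079.9, 2118 and 2129.8 in inguinal GFP-, 3167, 3180.5 and 2942 in epididymal GFP+ and 954, 934 and 918 in epididymal GFP- cells, with -1.81 ± 0.06 (adjusted p = 1.16e-12). Gata6, a GATA factor of heart and gut, was highest in epididymal GFP- cells (7141 to 7967 against 2069 to 2206 in epididymal GFP+ and 716 to 811 in inguinal cells), and Prrx1, a limb and skin mesenchyme factor, was lowest there (2329.7 to 2673 against 7201 to 11214). In the IGF axis and imprinted list 8 of 20 were positive and 5 negative (65%). The 5 negative members fell to 3 without inguinal GFP+ replicate 1, and also with median centring, without the variance trend, with averaged probe sets and at an adjusted p of 0.01. Igf1 was a reversal of 0.90 ± 0.06 (adjusted p = 6.78e-09); Grb10, an imprinted inhibitor of insulin signalling, had 0.66, with another probe set near 0 (0.03), and Igfbp7 -0.56.

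Cell cycle genes were called in 79.4% (11 of 34 positive, 16 negative), mostly by small amounts. The inhibitors Cdkn2b and Cdkn1a were higher in epididymal GFP- cells than in the other groups, at 5417 to 6589.5 against 1409 to 3289 and 16654 to 17783 against 12351 to 12701. Progenitor surface markers were 9 of 17 positive and 3 negative (70.6%), with a median of 0.44. Cd9, a tetraspanin of fibroblast progenitors, was a reversal of 1.25 ± 0.07 (adjusted p = 1.46e-09), Thy1 had 0.78 ± 0.05 (adjusted p = 8.47e-09), and Pdgfrb, a mural and preadipocyte receptor, was a reversal of -1.84 ± 0.04 (adjusted p = 6e-15) whose inguinal change of -0.12 lost its call with median centring (-0.08, adjusted p = 0.0647).

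Several marker lists of other cell types leaned one way. Of 15 mesothelial markers 11 were positive and 0 negative (73.3%), with a median of 2.15. Of 18 mural markers, genes of smooth muscle and pericytes, 12 were negative and 2 positive (77.8%), and 8 were reversals. Of these 8, 7 were down in inguinal and up in epididymal GFP+ cells, among them Myh11, smooth muscle myosin, which read 2566, 2817 and 2557 in inguinal GFP+, 5328, 5313 and 5216 in inguinal GFP-, 14254, 13073 and 13458 in epididymal GFP+ and 8115, 7598 and 7864 in epididymal GFP- cells, with -1.78 ± 0.06 (adjusted p = 9.03e-13), and Mylk, myosin light chain kinase, with -2.23 ± 0.07 (adjusted p = 3.27e-13). Not all genes of smooth muscle ran this way. Des was a reversal in the other direction. It read 1495 to 1558 in inguinal GFP+ and 1182 to 1362 in inguinal GFP- cells. In epididymal cells it read 10957 to 11331 in GFP+ and 13101 to 13547 in GFP-. Acta2 read 30808 to 32232 in epididymal GFP+ against 33823 to 34052 in epididymal GFP- cells. The summed mural signal was 130200 to 136300 in inguinal GFP+, 154700 to 156100 in inguinal GFP-, 188300 to 191700 in epididymal GFP+ and 146200 to 148000 in epididymal GFP- arrays. Its part in these results was not tested.

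Of 15 epithelial markers 5 were positive and 0 negative (33.3%). The keratins Krt8 and Krt18, shared with mesothelium, read 3656 to 3847 and 3473 to 3753 in epididymal GFP- cells against 27.2 to 353 and 15.7 to 611 elsewhere, and Krt14, of basal epithelium, 129 to 158 against 3.68 to 18.1. Epcam and Cdh1, which define epithelium, were near the olfactory receptor level on every array (12.3 to 47 and 3.73 to 28.1). The summed epithelial signal was 8707 to 8852 in epididymal GFP- arrays and 1561 to 1907 in the others. Of 18 endothelial markers 2 were positive and 3 negative (27.8%), with Esam, an endothelial adhesion molecule, at 798 to 847 against 40.8 to 133, and of 12 muscle and Schwann markers 2 were positive and 1 negative (2 without epididymal GFP+ replicate 2 and without the variance trend), or 25% called: Mbp, myelin basic protein, whose probe sets disagreed in direction, Myh1, a fast muscle myosin, at 480.2 to 551 against 2.83 to 46.6, and Acta1, skeletal actin, with -1.13 ± 0.12 (adjusted p = 1.72e-06). The summed endothelial signal was 6380 to 6731 in epididymal GFP- arrays and 2435 to 3482 in the others. In epididymal GFP- arrays most of that sum was Kdr, whose values are given above. Pecam1, the endothelial adhesion molecule CD31, read 3.76 to 29 on all arrays.

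**Figure D5:**
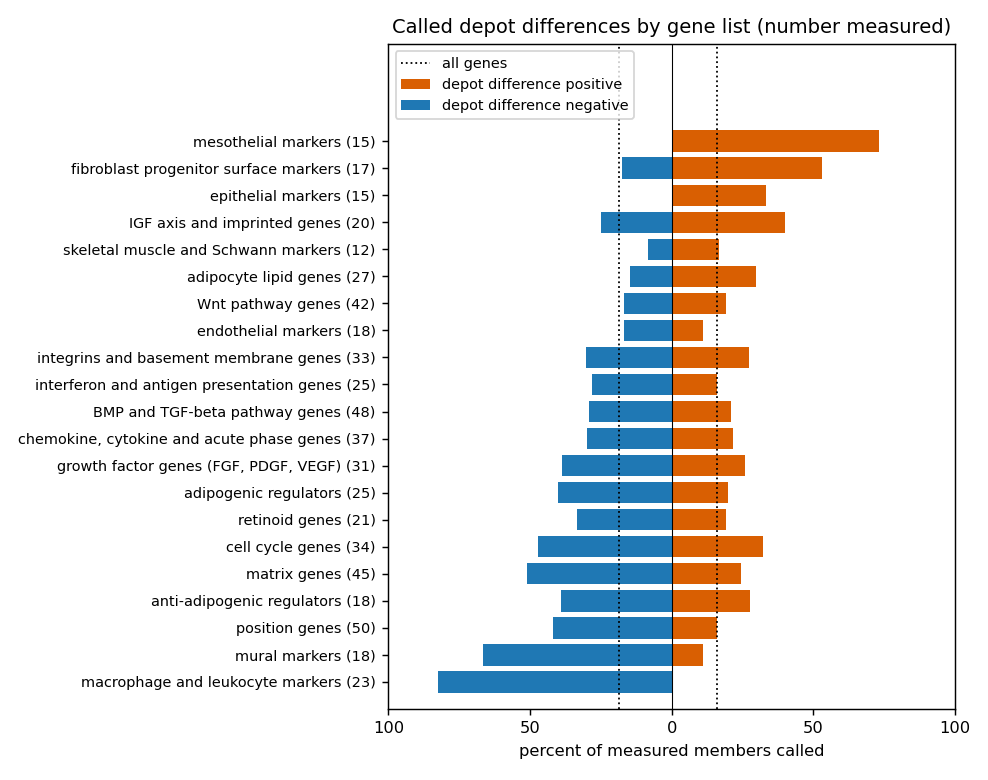
Percent of measured members of each gene list (number in brackets) with a called depot difference, positive to the right and negative to the left; the dotted lines mark 16.1% and 18.7% over all 12393 genes. Mesothelial markers lie farthest to the positive side (11 of 15) and macrophage and leukocyte markers farthest to the negative side (19 of 23).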

How the data were processed

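RNA of 12 samples was measured on Affymetrix arrays. The authors deposited a table of linear probe set intensity; how the signal was computed and scaled is not given in the sources used here. The table held 22626 probe sets: 20380 had 1 gene symbol, 691 several and 1555 none, and probe sets with 1 symbol entered. Symbols were updated by Entrez identifier with RefSeq's GRCm38.p6 gene table (24 kept as given). The probe set with the highest mean of log2(intensity + 16) stood for its gene. Groups came from the labels. One model over the 12 arrays gave all contrasts (limma 3.58.1, R 4.3.3, lmFit and eBayes with a variance trend), with Benjamini-Hochberg adjustment at 0.05, after a test on simulated data. Genes in the lowest 30% of means (log2 6.55, signal 77.7) were called weakly detected and kept. The number of arrays limits the precision.

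Members and gene lists were chosen with earlier results of these data known. Named genes were Zfp423, Ebf1, Sfrp2, Aldh1a1 and Itga9; the 6 largest detected depot differences per direction; the 8 reversals per direction with the largest smaller change and no overlap; the 4 widest gaps per class of group standing apart; and up to 3 called members per list by adjusted p. Pparg, Cyp26a1, Ptprc and Fbxo32 and the genes named in captions or as examples beyond that were chosen after their values were seen. Not every name the rule gave is printed with its values. Alternatives tried were quantile normalization, the replicate number as a block, pseudocounts of 1 and 64, median centring of arrays, dropping weakly detected genes, no variance trend, array weights, averaged probe sets per gene, an adjusted p of 0.01, a minimum change of 1.5-fold, other gaps (1.5-fold and 4-fold), 2-fold reversals, and the omission of each array; counts without the macrophage and mesothelial lists were added after the data were seen.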

Additional observations from a re-analysis of the deposited data

Results flagged for a closer look

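The GFP contrast differed between inguinal and epididymal cells, by the test of the difference itself in limma with Benjamini-Hochberg adjustment, in 4313 genes. The named sign reversals were picked for having no overlap of GFP+ and GFP- arrays in either depot. Among them the depot difference, on the log2 scale, was 8.57 for Sfrp2, 6.48 for Krt7, 4.18 for Aldh1a1, 3.91 for Fam110c, 3.79 for Bnc1, 2.67 for Itgbl1, 2.51 for St3gal1 and 2.07 for Arhgap18. In the other direction it was -4.45 for Col15a1, -4.16 for Aldh1a3, -4.10 for Srgn, -3.83 for Slamf9, -3.40 for Pcolce2, -2.79 for Dmd, -2.71 for Smoc1 and -2.56 for Limch1.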

How the results depend on the processing

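The count of called depot differences stayed within 1.5 times its value under every alternative but the minimum change of 1.5-fold, which left 885 genes (380 positive, 505 negative), 17 reversals (5 up and 12 down in inguinal), 1 gene with inguinal GFP+ high, 8 with it low and 2 with inguinal GFP- low. An adjusted p of 0.01 left 303 reversals (127 and 176) and 9 genes with inguinal GFP+ low; requiring 2-fold on both sides left 20 (5 and 15). Median centring turned the split of reversals, with 371 up and 205 down in inguinal against 206 and 298. A pseudocount of 64 left 6 genes with inguinal GFP+ low, 1 with inguinal GFP- low and 10 with epididymal GFP+ low, and leaving out weakly detected genes left 3 with inguinal GFP+ high and 15 with inguinal GFP- high. A gap of 1.5-fold gave 1076 genes in all, for inguinal GFP+ and GFP- and epididymal GFP+ and GFP- 13, 46, 101 and 401 high and 30, 11, 54 and 420 low; a gap of 4-fold gave 196, 1, 17, 7 and 81 high and 2, 0, 2 and 86 low.

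Leaving out each array in turn gave 3897 to 4317 depot differences (1782 to 2050 positive, 2088 to 2267 negative), 375 to 609 reversals (140 to 255 up and 218 to 354 down in inguinal) and 594 to 619 genes with a group apart: inguinal GFP+ 4 to 6 high and 11 to 19 low, inguinal GFP- 40 to 42 and 3 to 9, epididymal GFP+ 32 to 37 and 14 to 20, epididymal GFP- 237 to 251 and 239 to 252.

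With the replicate number as a block 4220 depot differences and 494 reversals were called (473 shared with the 504). No pairing by number was seen: none of 18 same-numbered pairs deviated together at r over 0.1 (-0.0572 to 0.0442). A small shared effect would not show in this check, so it cannot tell whether equal numbers mark a shared mouse or culture. Of the 504 reversals 377 were kept with averaged probe sets, 411 with median centring and 348 without the variance trend. Of 133 results for single genes, 118 held under every setting that gave them a value (23, or 22 for 8 of them). The other 15 lost their call under the minimum change of 1.5-fold, Dmd also without the variance trend and H2-D1 and Ptpn5 also with averaged probe sets, and none changed direction. List counts moved too: at the minimum change of 1.5-fold, 16 lists fell by over 1.5 times in at least 1 direction. Matrix genes went from 11 to 4 positive and 23 to 12 negative, position genes to 2 and 11, the IGF axis and imprinted list to 3 and 0, cell cycle genes to 2 and 1, and mural markers to 0 and 7. BMP and TGF-beta genes fell from 10 to 6 positive and mural markers from 2 to 1 with averaged probe sets, and negative cell cycle genes from 16 to 10 at an adjusted p of 0.01. Without weakly detected genes, positive epithelial markers fell from 5 to 3, negative endothelial markers from 3 to 1 and positive muscle and Schwann markers from 2 to 1. The cause of these changes was not tested. Array signal near the olfactory receptor level limits every fold of a dim gene.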
